A study of Mus musculus with 12 samples.

Results

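The 9 genes described here encode subunits of the Polycomb repressive complexes: Ezh1, Ezh2, Eed, Suz12 and Jarid2 of Polycomb repressive complex PRC2, and Bmi1, Cbx2, Cbx7 and Cbx8 of PRC1. They were taken by name from 22350 protein-coding genes, with earlier results of these data known. The study mapped 6 histone H3 modifications by sequencing immunoprecipitated chromatin (ChIP-seq) from C2C12, a mouse muscle precursor line labelled as of strain C3H. Near-confluent myoblasts kept in 10% serum were compared with myotubes, the fused muscle cells, taken about 5 days after serum withdrawal and freed of unfused cells by light trypsin treatment, all at passages 15 to 18. There was 1 library per mark and cell type, 12 in all, and no input library. Every difference below therefore compares 2 libraries and not 2 conditions, and each interval is a 95% interval for counting error only.

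Polycomb complexes keep genes silent. PRC2 carries out trimethylation of histone H3 on lysine 27 (H3K27me3) through its catalytic subunit, either EZH2 or EZH1, held together by EED and SUZ12. Chromobox (CBX) proteins of PRC1 bind that mark, and BMI1 partners the ubiquitin ligase RING1B. In muscle, EZH2 is known as the enzyme of dividing precursors and EZH1 as that of non-dividing cells. Among the marks measured, H3K4me3 and H3K4me2 sit at promoters, H3K4me1 at enhancers, H3K27ac at active promoters and enhancers, and H3K36me3 accumulates over transcribed gene bodies.

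Reads were counted in 2 regions of each gene. The promoter was the 1 kb either side of the transcription start site (TSS) with the most H3K4me3 reads, and the gene body ran from the annotated start to the annotated end (mm9). A level is given as a fold, the reads divided by those the same library would hold in that length at its genome mean. A relative ratio is the myotube to myoblast ratio of reads, scaled by total reads, divided by the median ratio of all protein-coding genes whose reads in the pair of libraries summed to 20 or more. That median was 0.869 for H3K4me3, 0.594 for H3K4me2, 0.871 for H3K4me1 and 0.570 for H3K27ac at promoters, and 1.02 for H3K36me3 over gene bodies. A gene is called lower or higher when its relative ratio passed 2-fold.

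The libraries held 1858771 (H3K27ac, myoblast) to 7033100 (H3K36me3, myoblast) aligned reads, so a promoter window at the genome mean would receive only 1.45 to 5.50 reads. The labels of the cells were checked against marker genes. All 7 myotube genes (Myog, Ckm, Acta1, Myh3, Tnnt3, Actc1, Casq2) were higher in myotubes by promoter H3K4me3 (median relative ratio 26.3), and all 5 dividing-cell genes (Mki67, Ccnb1, Ccna2, Top2a, Mcm5) were lower (0.452). By promoter H3K4me2 the 7 myotube genes were also higher (10.3), but 0 of the 5 dividing-cell genes were lower (1.69). Myod1 and Des were marked in both cell types, with a summed H3K4me3 fold of 31.6 in myoblasts and 51.2 in myotubes. Of the adipocyte genes, Fabp4 had no promoter H3K4me3 read and Adipoq had 6 and 3, while Pparg had 53 in myoblasts and 36 in myotubes. The 3 bone genes together held 7 and 5 reads.

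The sequences below are the start sites that separate Ezh2 from Ezh1, an acetylated element inside Ezh1, and the start of Bmi1. At the start of Bmi1, myoblast H3K27me3 reads were above the genome mean. All sequences are from the mm9 reference, 5′ to 3′ on the strand of the gene for promoters and on the plus strand for the element. Promoter windows run from 250 bases upstream of the TSS and hold 300 bases. Ezh2 lies at chr6:47544980-47545279 on the minus strand, and its capitals mark the E2F motif (TTTGGCGC or TTTCGCGC) and the CCAAT box (CCAAT), each searched on both strands and not overlapping each other. Ezh1 lies at chr11:101087728-101088027 on the minus strand and held neither motif. The Ezh1 element lies at chr11:101082531-101082830, within an intron and clear of annotated exons, and its capitals mark the E-box CAGCTG, which reads the same on both strands. Bmi1 lies at chr2:18599184-18599483 on the plus strand, and its capitals mark CG dinucleotides (CpG).
Ezh2 promoter: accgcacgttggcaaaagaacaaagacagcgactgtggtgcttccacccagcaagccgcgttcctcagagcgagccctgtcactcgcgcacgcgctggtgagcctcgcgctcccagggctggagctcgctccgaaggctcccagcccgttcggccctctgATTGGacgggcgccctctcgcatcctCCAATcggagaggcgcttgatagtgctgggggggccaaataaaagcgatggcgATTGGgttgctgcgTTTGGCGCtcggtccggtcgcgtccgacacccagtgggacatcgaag
Ezh1 promoter: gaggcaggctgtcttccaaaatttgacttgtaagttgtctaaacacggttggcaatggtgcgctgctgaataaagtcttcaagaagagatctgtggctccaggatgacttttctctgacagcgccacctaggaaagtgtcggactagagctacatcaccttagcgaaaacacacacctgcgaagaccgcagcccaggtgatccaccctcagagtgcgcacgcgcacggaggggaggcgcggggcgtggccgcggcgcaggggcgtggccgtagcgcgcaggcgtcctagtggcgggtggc
Ezh1 intron: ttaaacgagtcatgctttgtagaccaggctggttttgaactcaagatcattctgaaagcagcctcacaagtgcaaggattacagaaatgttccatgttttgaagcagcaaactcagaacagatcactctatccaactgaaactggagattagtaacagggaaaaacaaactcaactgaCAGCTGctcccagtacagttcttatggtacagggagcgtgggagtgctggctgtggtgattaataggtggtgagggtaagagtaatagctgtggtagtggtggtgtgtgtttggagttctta
Bmi1 promoter: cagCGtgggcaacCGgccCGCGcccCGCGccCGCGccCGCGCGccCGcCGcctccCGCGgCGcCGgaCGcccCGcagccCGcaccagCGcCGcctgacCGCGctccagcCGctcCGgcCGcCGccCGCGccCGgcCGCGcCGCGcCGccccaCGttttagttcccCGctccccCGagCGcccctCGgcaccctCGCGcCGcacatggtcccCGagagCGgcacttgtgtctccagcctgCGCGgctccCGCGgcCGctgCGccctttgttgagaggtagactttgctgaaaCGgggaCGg

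The E2F motif of Ezh2 began 3 bases downstream of the TSS. Of all 22350 promoter windows, 1.01% held this motif, and none of the other 8 genes did. The Ezh2 window also held 3 CCAAT boxes, 90, 64 and 11 bases upstream, against 36.1% of all promoters with at least 1. Single CCAAT boxes were found at Suz12, Cbx2, Cbx8 and Cbx7. The Bmi1 window was 79.7% G and C with 54 CpG, the Ezh2 window held 31 and the Ezh1 window 23, against a median of 13.0 over all promoters. The Jarid2 window stood at the other end of the group, with 6 CpG, but its chosen start lies 2385 bp downstream of the 5′-most one, within the annotated gene. A motif match is a description of the letters and not a bound site.

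Every one of the 9 promoters carried H3K4me3 and H3K4me2 above the genome mean in both cell types. Of all promoters, 54.6% (myoblast) and 54.3% (myotube) did so for H3K4me3, and 61.7% and 59.0% for H3K4me2. The median H3K4me3 fold of the group was 30.0 in myoblasts and 17.1 in myotubes, where that of all promoters was 5.07 and 4.65. Gene by gene the difference was smaller, with a median relative ratio of 0.865 and 5 of 9 genes below 1. In myoblasts the lowest folds were those of Cbx7 (12.4) and Ezh1 (14.8), whose intervals overlapped each other, and the highest that of Suz12 (37.8), which overlapped the intervals of all but Cbx7 and Ezh1. The H3K27ac levels spread more widely, from 2.06 at Ezh1 to 57.8 at Eed in myoblasts and from 4.06 at Cbx7 to 35.7 at Eed in myotubes. H3K27me3 was above the genome mean in myoblasts at 2 promoters of the 9, Bmi1 and Cbx8, the latter by the narrowest margin, where 18.1% of all promoters were. In myotubes it was above the mean at 0 of the 9, where 12.6% of all promoters were.

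**Figure D1:**
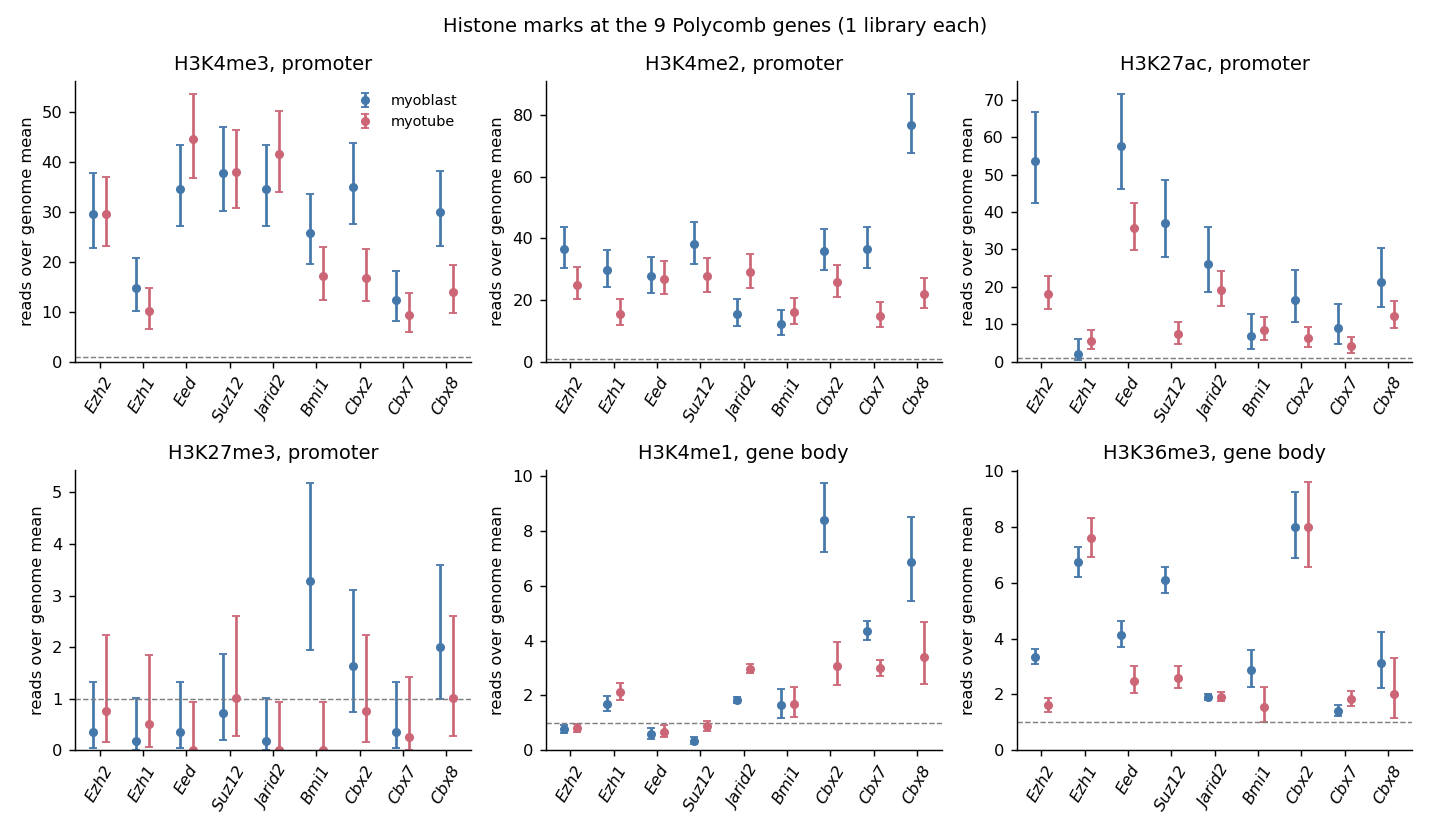
Levels of 6 mark and region pairs at the 9 Polycomb genes, as reads over the genome mean (fold) on linear axes that start at 0. Points are single libraries (blue myoblast, red myotube), bars are 95% Poisson intervals and the dashed line is the genome mean. Promoter H3K27ac was highest at Eed, Ezh2 and Suz12 in myoblasts, and promoter H3K27me3 was highest at Bmi1 in myoblasts, with 18 reads.

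Ezh2 and Ezh1, the alternative catalytic subunits, both had promoter H3K4me3 in the 2 cell types. Ezh2 held 64 reads in myoblasts and 76 in myotubes, a fold of 29.5 in each. Ezh1 held 32 and 26 reads, folds of 14.8 (10.1 to 20.8) and 10.1 (6.58 to 14.8). The ratio of Ezh2 divided by the ratio of Ezh1, in which library depth and scaling cancel, was 1.46 (0.755 to 2.84). No difference between the genes in their myotube to myoblast ratio was therefore detectable at this depth. Per base, Ezh2 had 2.00 times (1.29 to 3.16) the H3K4me3 reads of Ezh1 in myoblasts and 2.92 times (1.85 to 4.76) in myotubes. H3K4me2 was also within the counting error, with a ratio of ratios of 1.30 (0.838 to 2.03).

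Acetylation separated the pair. H3K27ac at the Ezh2 promoter was 78 reads in myoblasts and 67 in myotubes, folds of 53.6 and 18.1. At Ezh1 it was 3 and 20 reads, folds of 2.06 (0.425 to 6.03) and 5.41 (3.30 to 8.36). The Ezh2 level was thus above that of Ezh1 in both cell types, by 26.0 times (8.57 to 129) in myoblasts and 3.35 times (2.01 to 5.83) in myotubes. The ratio of ratios was 0.130 (0.0237 to 0.467), with the interval clear of 1. Relative to the median gene, Ezh1 was higher in myotubes (3.62, 1.36 to 24.2). Ezh2 stood at 0.594 (0.421 to 0.832), which did not reach the 2-fold limit. Not divided by the median, Ezh2 was past 2-fold, at 0.339 by total reads and 0.334 by reads outside peaks. The median promoter was itself at 0.570 by total reads, and the share of promoters past 2-fold on those scalings was not counted. The Ezh1 value rests on 3 myoblast reads. It ran from 1.80 with a 2-kb window to 9.95 with a 500-bp window, where the ratio of ratios was 0 with an upper bound of 0.264.

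**Figure D2:**
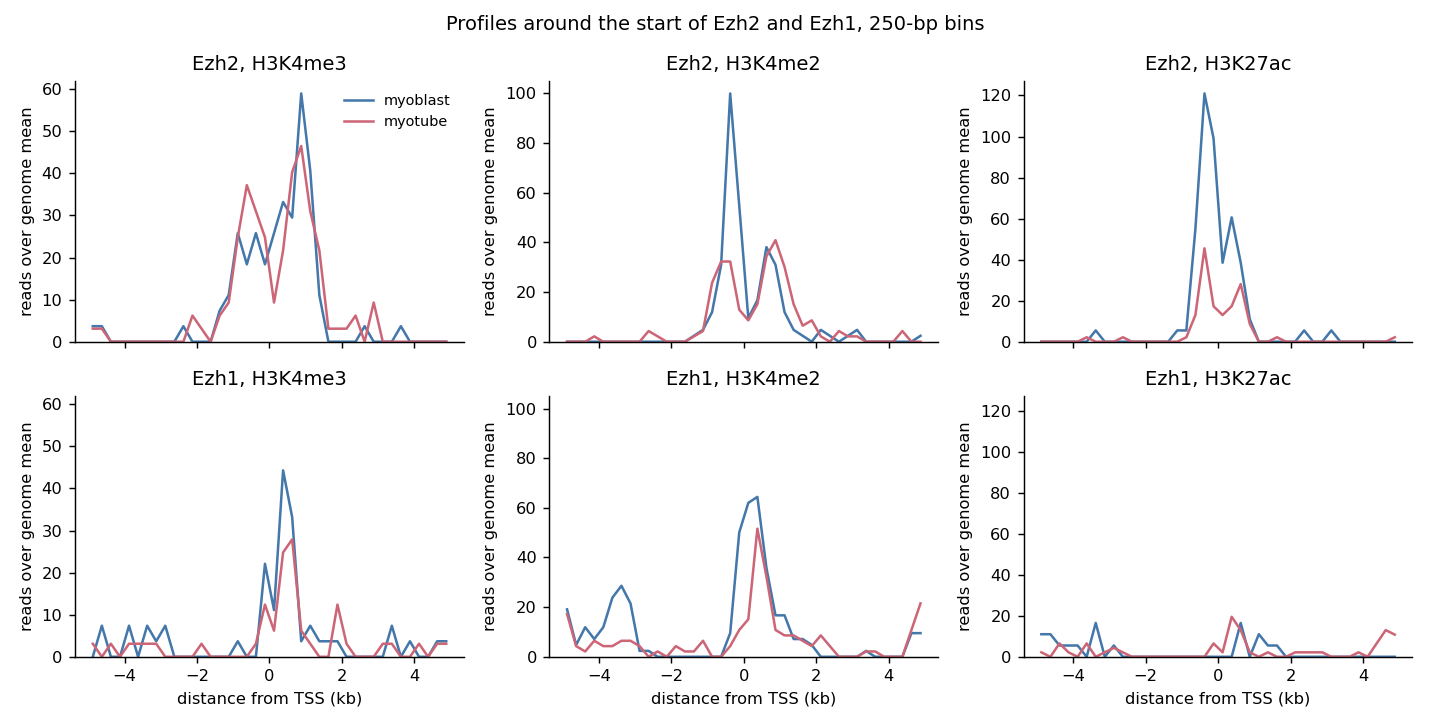
H3K4me3, H3K4me2 and H3K27ac around the TSS of Ezh2 (top) and Ezh1 (bottom) in 250-bp bins, as reads over the genome mean, against distance from the TSS in kb, downstream to the right, with the same vertical axis for both genes. Lines are single libraries (blue myoblast, red myotube). H3K27ac of Ezh2 peaked 375 bp upstream at 121 in myoblasts and 45.5 in myotubes, whereas Ezh1 stayed below 20 in both.

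Within the promoter window the H3K4me2 of Ezh2 lay on both sides of the TSS. Its highest 250-bp bin was 375 bp upstream in myoblasts, at 42 reads and a fold of 100, and 875 bp downstream in myotubes, at 19 reads and a fold of 40.9. Ezh1 carried its highest H3K4me2 bin 375 bp downstream in both cell types, with 27 and 24 reads. A second stretch of H3K4me2 and H3K4me1 lay 2.5 to 4.5 kb upstream of Ezh1, where H3K4me2 was 46 reads in myoblasts and 16 in myotubes and H3K4me1 was 40 and 19. The next annotated start upstream was that of Ramp2, 19565 bp away. This stretch was picked after its values were seen and is given as a description.

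Over the gene bodies, H3K36me3 of Ezh2 and Ezh1 differed. Ezh2 held 599 reads in myoblasts and 177 in myotubes, folds of 3.35 (3.09 to 3.63) and 1.61 (1.38 to 1.87). Ezh1 held 654 and 453 reads, folds of 6.73 (6.22 to 7.27) and 7.60 (6.92 to 8.33). The ratio of ratios was 0.427 (0.345 to 0.527), and it lay between 0.426 and 0.431 in 5 other ways of counting. Ezh2 was called lower (relative ratio 0.474, 0.397 to 0.559), and Ezh1 was 1.11 (0.979 to 1.25). Scaled by reads in 10-kb windows outside peaks, Ezh2 was 0.540, which ends its call. Per base, the gene body of Ezh2 carried 0.498 times the H3K36me3 of Ezh1 in myoblasts and 0.212 times in myotubes.

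Lower values were also found in the scaffold subunits that EZH2 needs. Suz12 held 688 H3K36me3 reads in myoblasts and 180 in myotubes, folds of 6.10 and 2.60, and was called lower (0.420, 0.353 to 0.493). Eed held 300 and 111, with intervals of the fold of 3.69 to 4.64 and 2.06 to 3.01, and its relative ratio of 0.594 (0.471 to 0.737) did not reach 2-fold. Jarid2, an accessory partner of PRC2, held 1006 and 622 reads, with a relative ratio of 0.988 (0.892 to 1.09). So 2 of 9 members were lower by the 2-fold rule, where 6.92% of all gene bodies were, and 0 were higher, where 7.00% were. By the interval alone, 4 members lay below 1 (Ezh2, Suz12, Eed and Bmi1), as did 27.6% of all gene bodies, and 1 lay above 1 (Cbx7), as did 26.4%. The median relative ratio of the 9 genes was 0.662.

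The dividing-cell genes differed in the same direction. All 5 were lower by gene body H3K36me3, with a median relative ratio of 0.121 and a summed level of 7.84 in myoblasts and 1.49 in myotubes. None of the 5 was at 0 in either library. Their part in the values of Ezh2 and Suz12 was not tested. The 2 lincRNA genes annotated inside member bodies, Gm17629 within Ezh2 and Gm16706 within Suz12, lie on the opposite strand, and ChIP-seq reads of a gene and of a gene within it cannot be told apart.

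**Figure D3:**
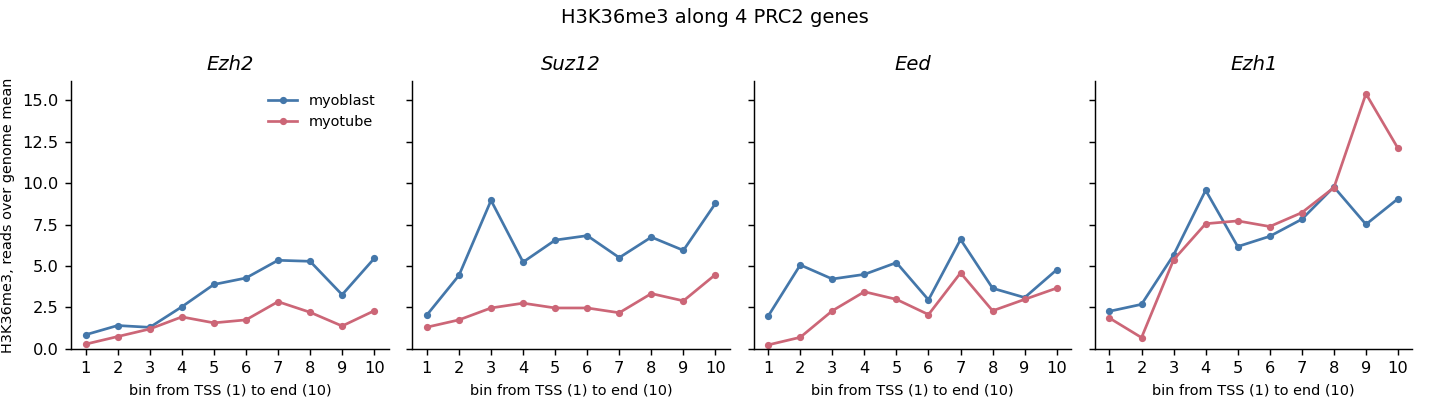
H3K36me3 along Ezh2, Suz12, Eed and Ezh1, in 10 equal bins from the TSS (1) to the annotated end (10), as reads over the genome mean on 1 shared axis from 0. Points are single libraries (blue myoblast, red myotube). In Ezh2, Suz12 and Eed the myotube point was under the myoblast point in all 10 bins, and in Ezh1 in 5 of 10.

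H3K36me3 increased toward the 3′ end of most of these genes. In Ezh2, split at its midpoint, the 3′ part held 2.37 times (1.99 to 2.84) the reads per base of the 5′ part in myoblasts and 1.84 times (1.34 to 2.55) in myotubes. In Ezh1 these values were 1.55 (1.33 to 1.83) and 2.28 (1.86 to 2.81). Jarid2, the longest of the 9 genes at 192170 bp, had 2.54 and 3.68. Cbx8 went the other way, with 31 reads in the 5′ part and 7 in the 3′ part in myoblasts (0.226, 0.0839 to 0.522).

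H3K27ac over the gene body repeated the separation of Ezh1 from Ezh2. Ezh1 held 31 reads in myoblasts and 128 in myotubes and was called higher (2.06, 1.42 to 3.23), but scaled by reads outside peaks it was 1.56, which ends the call. Ezh2 held 80 and 85 reads (0.543, 0.395 to 0.746). The ratio of ratios was 0.258 (0.151 to 0.434). The intronic element printed above lies in a deposited myotube H3K27ac peak of 1446 bp, chr11:101081958-101083403, centred 5097 bp downstream of the TSS. That peak held 1 H3K27ac read in myoblasts and 34 of the 128 myotube reads, folds of 0.952 and 12.7, which describes it and tests nothing, since it was chosen as a myotube peak. It was also marked by H3K4me1 in myoblasts, with 24 reads against 35 in myotubes, and by H3K4me2, with 18 against 28. The element holds 1 CAGCTG, as do 23.6% of the 300-base windows centred on all 31717 myotube H3K27ac peaks more than 2500 bp from a TSS. Ezh2 held an intronic H3K4me2 peak of the myoblast list, chr6:47509907-47510431, with 12 H3K4me2 reads in myoblasts and 2 in myotubes and 4 H3K27ac reads against 1, where the choice of a myoblast peak fixed the direction of the first.

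H3K27me3 over the body of Ezh1 was 73 reads in myoblasts and 86 in myotubes, folds of 0.753 and 1.24, while Ezh2 held 118 and 88, folds of 0.661 and 0.690. The ratio of ratios was 0.634 (0.408 to 0.981), close to the limit of what the counts can show. Both promoters were almost free of the mark, with 1 to 3 reads in each library.

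Suz12, which stabilises PRC2, had a myotube to myoblast ratio of promoter acetylation below that of the median gene. The median H3K27ac fold of all promoters was 3.44 in myoblasts and 2.43 in myotubes, and Suz12 was above it in both. It held 54 H3K27ac reads in myoblasts and 27 in myotubes, folds of 37.1 (27.9 to 48.5) and 7.30 (4.81 to 10.6), and was called lower (0.351, 0.209 to 0.557). Its H3K4me3 was 82 and 98 reads (folds 37.8 and 38.0). Over its body H3K4me2 was 67 and 152 reads (2.31, 1.74 to 3.15) and H3K4me1 was 35 and 88 (2.59, 1.76 to 4.02), both called higher, at body levels of 0.973 and 1.99 for H3K4me2 and 0.337 and 0.875 for H3K4me1. Scaled by reads outside peaks the H3K4me2 ratio was 1.31, which ends that call. Suz12 thus had less acetylation at its start and less H3K36me3 along its length in the myotube library, with H3K4me3 at similar folds. Within the gene, H3K4me1 was higher by relative ratio but no higher than the genome mean in either library. The H3K4me2 difference there depended on the scaling.

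Eed, the H3K27me3-binding subunit, had the highest H3K27ac fold of the group in both libraries, with 84 and 132 H3K27ac reads (relative ratio 1.08, 0.818 to 1.44). Its H3K4me3 was 75 and 115 reads, and its relative ratio of 1.48 had an interval clear of 1, as had that of Jarid2 on 75 and 107 reads. Neither reached 2-fold. For H3K4me3, 2 of 9 members had an interval above 1 and 2 had one below 1 (Cbx2 and Cbx8), against 14.6% and 14.2% of all promoters.

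Jarid2 showed its clearest difference in H3K4me2 at the chosen start, Jarid2-010, with 52 reads in myoblasts and 108 in myotubes (3.12, 2.25 to 4.48). By total reads the ratio was 1.86 and by reads outside peaks 1.19, so the call rests on the scaling to the median promoter. H3K4me1 there was 2 and 16 reads. At the start Jarid2-012, 2181 bp downstream, H3K4me2 was 122 and 91 reads, and at Jarid2-015, 2064 bp upstream, it was 76 and 52. At these neighbouring starts the myotube reads were not the higher ones, and at the 5′-most start the relative ratio was 1.03. Along the gene, H3K4me1 was 889 and 1404 reads (1.65, 1.52 to 1.80). The deposited lists placed 10 H3K4me1 peaks within Jarid2 in myoblasts and 20 in myotubes, and these covered 4.62% and 1.16% of the gene.

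Bmi1, the PRC1 ring-finger subunit that represses the Cdkn2a locus, had the most promoter H3K27me3 of the group. It held 18 reads in myoblasts, a fold of 3.28 (1.94 to 5.18), at percentile 91.0 of all promoters, and 0 reads in myotubes, where the fold was at most 0.940 by its interval. The ratio of myotube to myoblast reads, scaled by total reads, had an upper bound of 0.318. The reads lay over and downstream of the TSS, and within 2 kb either side of it they numbered 24 and 1. With the promoter moved to the 5′-most start, 789 bp upstream, the relative ratio was 0.398, against 0.0936 at the chosen start. The myoblast peak list whose regions held H3K27me3 reads, deposited with H3K27ac, had no peak at the chosen promoter. Because the 2 libraries together held under 20 reads, no call was made for the promoter, and 0 of 9 promoters had enough reads for one, where 10.5% of promoters with enough were lower and 6.66% higher. The gene body held 32 and 7 reads and was called lower (0.296, 0.0997 to 0.617), 1 of 8 members tested, where 2.41% of all gene bodies were, and 0 were higher, against 4.27%. Without the 1 kb next to the TSS its ratio was 0.630, which ends the call.

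The active marks of Bmi1 were present in both cell types. H3K4me3 was 56 and 44 reads, folds of 25.8 and 17.1, with a relative ratio of 0.764. H3K27ac was 10 and 31 reads (2.01, 1.02 to 4.89), which was called higher at the very limit of the rule and fell to 1.13 as the lowest of the alternatives. H3K4me2 was 41 and 60 reads (2.21, 1.47 to 3.39) and also called higher, but scaled by reads outside peaks it was 0.843. H3K36me3 over the gene was 76 and 25 reads, folds of 2.88 (2.27 to 3.60) and 1.54 (0.998 to 2.28), and its relative ratio of 0.539 (0.320 to 0.835) did not reach 2-fold.

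Cbx2 and Cbx8, chromobox proteins of PRC1, are neighbours on chromosome 11. Their relative ratios of promoter H3K4me3 were the lowest of the group. Cbx2 held 76 reads in myoblasts and 43 in myotubes (0.553), and Cbx8 held 65 and 36 (0.543). Neither reached 2-fold, so 0 of 9 members were lower and 0 higher by promoter H3K4me3, where 4.57% and 4.87% of all promoters were. By total reads alone the ratios were 0.481 and 0.472, past the limit, where the median promoter was itself at 0.869. The share of all promoters past the limit on that scaling was not counted.

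The other marks of the 2 genes were mixed. At the Cbx8 promoter H3K4me2 was 258 reads in myoblasts, the highest fold among the 9 genes (76.8, 67.7 to 86.8), and 81 in myotubes (relative ratio 0.481, 0.367 to 0.614). H3K4me1 there was 55 and 22 reads (0.487, 0.275 to 0.790). Both calls end with a window of 500 bp either side of the TSS, where the ratios were 0.728 for H3K4me2 and 1.01 for H3K4me1. H3K27ac at Cbx8 was 31 and 45 reads (0.991). At the Cbx2 promoter H3K4me2 was 121 and 96 reads (1.21, 0.912 to 1.59) and H3K4me1 was 22 and 28 (1.49, 0.832 to 2.77), neither with an interval clear of 1. The body of Cbx2 was called lower for 4 marks, with H3K4me3 at 77 and 29 reads (0.350), H3K4me2 at 204 and 85 (0.430), H3K4me1 at 177 and 63 (0.377) and H3K27ac at 47 and 28 (0.309). H3K36me3 over Cbx2 had folds of 8.01 (6.89 to 9.26) and 7.99 (6.58 to 9.62), with a relative ratio of 0.981 (0.766 to 1.24). These were the highest of the 9 genes, although their intervals overlapped those of Ezh1.

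A minor part of these Cbx2 reads lay in an internal region, chr11:118887259-118888341, centred 3524 bp downstream of the TSS and overlapping an exon. H3K4me2 there was 49 reads in myoblasts and 8 in myotubes, and H3K4me1 was 53 and 7. H3K4me3 was only 5 and 0 reads. H3K27ac was 8 and 4 reads, on a myotube library with more reads. The region is a myoblast H3K4me2 peak with none called in myotubes, so these values describe it and are no test.

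H3K27me3 was higher upstream of Cbx2 than over either gene body. The 100 kb upstream of Cbx2 held 1178 reads in myoblasts and 689 in myotubes, folds of 4.29 (4.05 to 4.55) and 3.51 (3.26 to 3.79). Between Cbx2 and Cbx8 there were 23 and 9 reads, folds of 1.67 and 0.912. The bodies of Cbx2 and Cbx8 were at 0.790 and 0.938 in myoblasts and at 1.23 and 0.219 in myotubes. The promoter of Cbx8 held 11 reads in myoblasts, a fold of 2.00 with an upper bound of 3.59, and 4 in myotubes. Set against the 200 kb around it instead of the genome, that fold was 0.622.

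**Figure D4:**
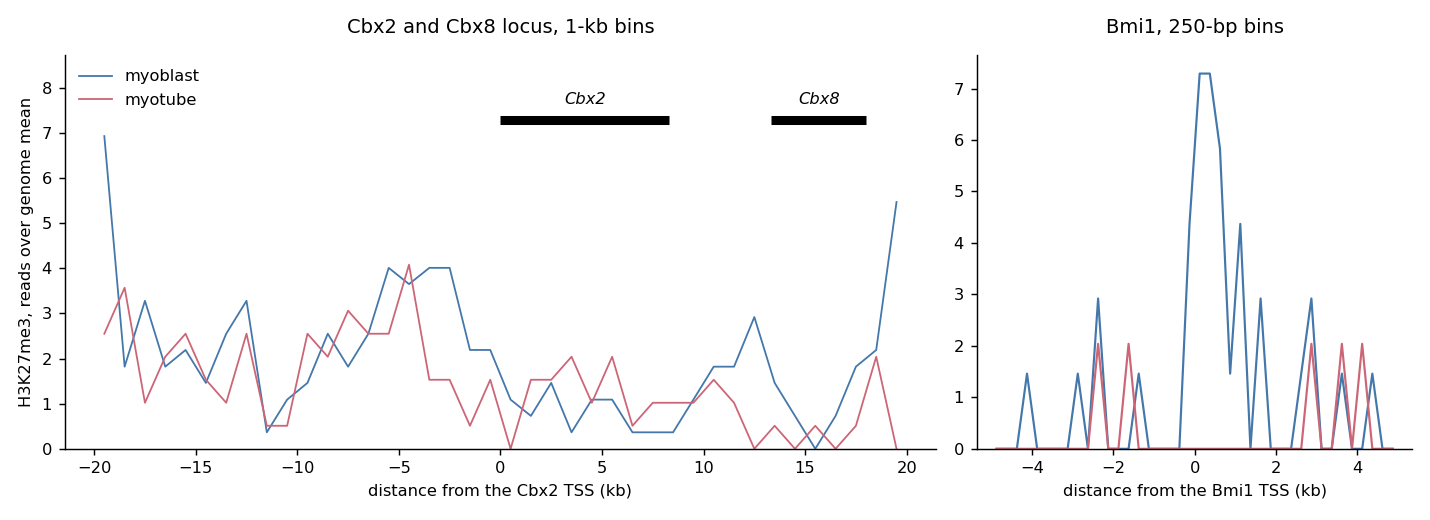
H3K27me3 as reads over the genome mean from 20 kb upstream to 20 kb downstream of the Cbx2 TSS in 1-kb bins (left, black bars are the Cbx2 and Cbx8 genes) and around the Bmi1 TSS in 250-bp bins (right), both against distance in kb, with single libraries as lines (blue myoblast, red myotube). At the Bmi1 promoter the myoblast library held 18 reads and the myotube library 0, while the folds over the whole bodies of Cbx2 and Cbx8 lay between 0.219 and 1.23.

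Cbx7, which binds H3K27me3 and is known from embryonic stem cells, was used from an internal start 38467 bp downstream of its 5′-most one. The 5′-most start had 3 and 2 H3K4me3 reads and the chosen one 27 and 24. The chosen promoter held 63 H3K4me1 reads in myoblasts and 30 in myotubes, folds of 12.4 and 6.11 (relative ratio 0.574, 0.353 to 0.885). H3K4me2 was 123 and 55 reads (0.686, 0.485 to 0.941). H3K36me3 over the annotated gene was 214 and 171 reads (1.28, 1.04 to 1.57), the only member with an interval above 1.

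Upstream of that start, within the annotated gene, stood the distal region with the highest myoblast H3K27ac fold of any member, chr15:79779932-79783362. It held 63 H3K27ac reads in myoblasts and 127 in myotubes, with intervals of the fold of 19.4 to 32.3 and 16.7 to 23.8. H3K4me1 there was 233 and 98 reads, a scaled ratio of 0.437 (0.339 to 0.552). The H3K27ac intervals overlapped, while those of H3K4me1 (23.5 to 30.5 and 9.46 to 14.2) did not. A second region, chr15:79788381-79789576, was acetylated at 12.7 and 20.8, with overlapping intervals. These distal regions were taken from deposited peaks, the first joined from peaks that include a myoblast H3K4me2 peak, and are given as descriptions.

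For acetylation at promoters, 1 of 9 members was lower (Suz12) and 2 were higher (Ezh1 and Bmi1), where 13.0% and 14.7% of all promoters were, and the median relative ratio was 0.991. For H3K4me2 at promoters 1 was lower (Cbx8) and 2 were higher (Jarid2 and Bmi1), against 9.02% and 8.60%. These H3K4me2 counts depended on the scaling, with 2 lower and 0 higher by total reads and 6 lower and 0 higher by reads outside peaks. The median promoter was itself at 0.594 by total reads, and 37.9% of myotube but 24.4% of myoblast H3K4me2 reads lay outside peaks. The share of all promoters past 2-fold on these 2 scalings was not counted, so those counts are no result about the members. For H3K4me1 at promoters 1 of the 5 genes with enough reads was lower (Cbx8), against 13.3%, and 0 were higher, against 13.1%. Over gene bodies, 1 of 9 was lower and 0 higher for H3K4me3 (3.50% and 4.45% of all), and 1 was lower for H3K4me2 (12.7%), for H3K4me1 (9.64%) and for H3K27ac (11.3%), each time Cbx2. Suz12 was the 1 member higher for H3K4me2 (13.3%) and H3K4me1 (10.9%), and Ezh1 the 1 higher for H3K27ac (13.1%).

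**Figure D5:**
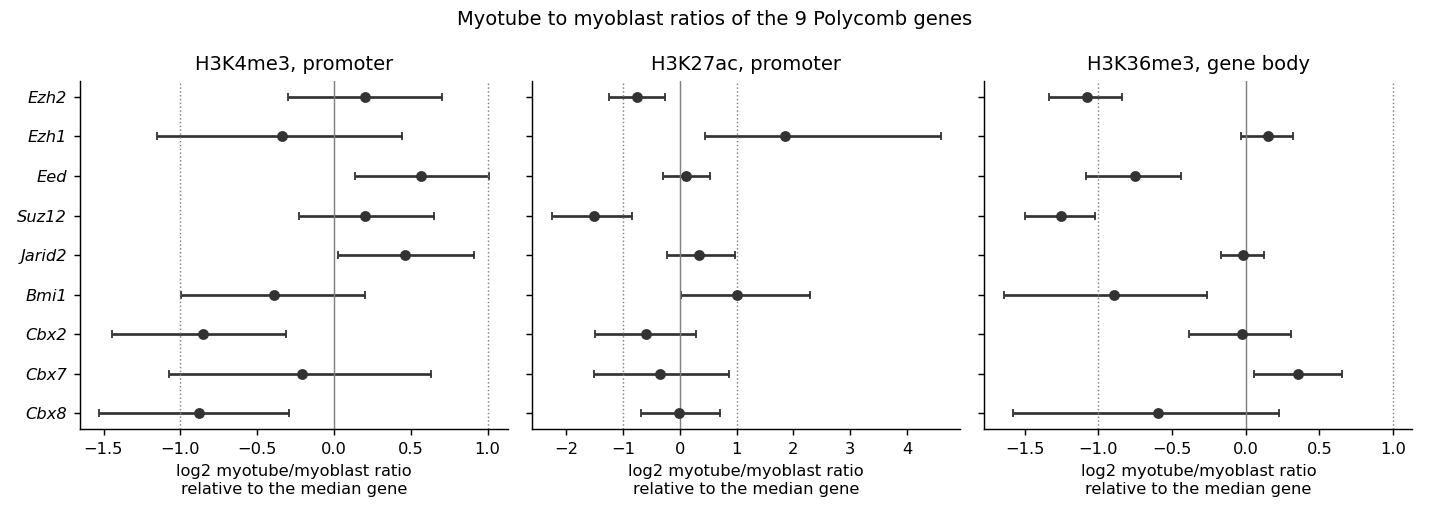
Myotube to myoblast ratios of the 9 genes relative to the median gene, on a log2 axis, for promoter H3K4me3, promoter H3K27ac and gene body H3K36me3. Points are 1 pair of libraries, bars are 95% intervals for counting error, the solid line is the median gene and dotted lines are 2-fold. Ezh2 and Suz12 lie left of the dotted line for H3K36me3, and Ezh1 lies right of it for H3K27ac.

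A list of 27 other Polycomb genes was counted in the same way. By promoter H3K4me3 only Scmh1, a PRC1-associated gene, was lower (46 and 20 reads, 0.433) and none was higher, against 4.57% and 4.87% of all promoters. By promoter H3K27ac 3 were lower, Pcgf3 (0.473), Yaf2 (0.411) and L3mbtl2 (0.396). On the same measure 4 were higher, Rnf2 (2.15), Pcgf5 (2.15), Kdm2b (5.52) and Kdm6b (2.99). Both counts are near the 13.0% and 14.7% of all promoters called lower and higher. Rnf2 encodes RING1B, the catalytic partner of BMI1, KDM2B recruits a PRC1 variant to CpG islands and KDM6B is a demethylase of H3K27me3. Kdm2b had 33 reads in myoblasts and 271 in myotubes.

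By gene body H3K36me3, Rbbp7 (192 and 52 reads, 0.439) and Phf19 (276 and 84 reads, 0.490) were lower and none of the 27 was higher, where 6.92% and 7.00% of all gene bodies were, so the count of lower genes is near the background. Both belong to the 6 PRC2 accessory genes, whose median relative ratio was 0.558, while that of the 17 PRC1 genes was 0.913 and that of the 4 genes of opposing enzymes 1.01. RBBP7 is a histone-binding subunit of PRC2 and PHF19 an accessory subunit that binds H3K36me3. Promoter H3K27me3 was above the genome mean at 2 of the 27, Phf19 (15 and 5 reads) and L3mbtl2 (12 and 2 reads), in myoblasts only, where 18.1% of all promoters were above it.

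The promoters most like those of Ezh2 and Ezh1 over all 12 libraries were found by the Euclidean distance of log2((reads + 1)/(expected reads + 1)), where the expected reads are those at the genome mean. For Ezh2 they were Zfp219 (1.14), Dse (1.15) and Ccny (1.24), and for Ezh1 Gm12258 (1.64), Ccdc23 (1.78) and Nfatc1 (1.83). The distance between Ezh2 and Ezh1 was 5.43, against a median over all genes of 7.52 from Ezh2 and 7.14 from Ezh1.

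The deposited peak lists gave H3K4me3 peaks at all 9 promoters in both cell types, where 48.9% (myoblast) and 49.1% (myotube) of all promoters had one. H3K4me2 peaks were also at all 9, against 57.1% and 53.3%. In myotubes 0 of 9 had an H3K27me3 peak, against 312 of all 22350 promoters. For myoblasts, the list deposited with the H3K27me3 library held regions where H3K27ac reads averaged 36.4-fold and H3K27me3 reads 0.804-fold, and the list deposited with H3K27ac held the reverse, 0.588 and 6.76. As deposited, 7 of 9 promoters overlapped a peak of the myoblast list labelled H3K27me3 (46.3% of all promoters). For the list labelled H3K27ac, 0 of 9 did (4.94%). By the reads in their regions, the myoblast lists of these marks appear to be exchanged. Read that way, 7 of 9 promoters had a myoblast H3K27ac peak and 0 of 9 an H3K27me3 peak. In myotubes 8 of 9 promoters overlapped an H3K27ac peak (42.6%). The read counts, folds and relative ratios above do not depend on these lists, apart from where a distal region was placed. The lists also gave the Jarid2 peak counts, the windows searched for CAGCTG and the scaling by reads outside peaks.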

How the data were processed

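Chromatin immunoprecipitation libraries of 6 histone marks from C2C12 myoblasts and myotubes were used, 1 per mark and cell type. The authors aligned the reads to mm9 and deposited them as 1 line per read, so the counts here are sums of deposited reads. They also deposited peaks called by MACS, each with a score; its settings are not given in the sources used here. What was merged into each reads file is not given either. Reads were extended to 150 bp and counted at the fragment midpoint. Each promoter was the TSS with the most H3K4me3 reads and 1 kb on either side, and each gene body the annotated span (GENCODE annotation of the mm9 assembly, which also gave the sequences). Folds carry exact Poisson intervals and ratios (1 read added) exact conditional binomial intervals, at 95%. Genes whose reads in the pair of libraries summed to 20 or more were tested against the median gene, with a call past 2-fold. With 1 library a group there were no p-values. Motifs were searched on both strands. All 9 members were named, the 3 nearest promoters were taken for Ezh1 and Ezh2, and other Polycomb genes were named where called. The members and lists were chosen with earlier results of these data known. Counting was tested on simulated data. Alternatives were the window, extension, duplicates, start site, scaling, added reads and thresholds. Computation used scipy 1.17.1 and numpy 2.4.6 under Python 3.11.15, tables pandas 2.3.3, and plots matplotlib 3.10.9. Some results are not reported here.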

Additional observations from a re-analysis of the deposited data

How the results depend on the processing

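Of the recomputed Ezh2 to Ezh1 ratios, 59 of 60 moved by less than their counting interval, with H3K36me3 over gene bodies at 0.426 to 0.431. Of the ratios of single genes, 843 of 918 moved by less than their counting interval, 73 moved and 2 reversed. Both counts include values on few reads, such as promoter H3K27me3 of Ezh1, with a relative interval of 0.185 to 210. Values of that kind could hardly leave their interval, so the counts do not measure stability. With 500 bp either side of the TSS, the promoter H3K27ac value of Ezh2 over Ezh1 was 0, the Cbx8 H3K4me1 ratio was 1.01, 1 member was lower and 1 higher for H3K4me3, and 0 were higher for H3K27ac. With 2 kb, or at least 50 reads, 0 were higher for H3K27ac, and 1 was with 1 read per position or the 5′-most TSS. Scaled by total reads, 2 were lower for H3K4me3, 4 lower and 1 higher for H3K27ac and 2 lower and 0 higher for H3K4me2. Scaled by 10-kb windows outside peaks, 2 were lower for H3K4me3, 4 lower and 1 higher for H3K27ac, 1 lower for H3K36me3 and 6 lower and 0 higher for H3K4me2, and Bmi1 H3K4me2 was 0.843. At 1.5-fold, 2 were lower for H3K4me3, 3 for H3K27ac and 5 for H3K36me3. The shares of all genes at these settings were not counted, so none of these counts is a result about the members. By total reads the median promoter was itself at 0.869 for H3K4me3, 0.594 for H3K4me2 and 0.570 for H3K27ac. At its 5′-most TSS Cbx7 had myotube folds of 0.775 (H3K4me3), 0.269 (H3K4me2), 0.408 (H3K4me1) and 0 (H3K27ac) and myoblast folds of 0 (H3K4me2), 0.197 (H3K4me1), 0.688 (H3K27ac) and 0.182 (H3K36me3). Against the surrounding 200 kb, Cbx7 H3K27ac in myotubes was 0.968 and Cbx8 H3K27me3 in myoblasts 0.622. The causes were not tested. The gene body from the chosen TSS was an alternative chosen after seeing the data. No paired analysis was possible because each mark and cell type had 1 library. Depth limits promoter H3K27me3, where no member had enough reads for a call.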
